A study of Mus musculus with 12 samples.

Results

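Aquaporin genes and the V2 vasopressin receptor gene were described across sorted cells of the mouse kidney cortex. The rows were taken by gene symbol, a rule that uses no measured value, although the list of symbols was drawn up with earlier results of these data known. They numbered 8 genes: the water channel genes Aqp1, Aqp2, Aqp3, Aqp4, Aqp6, Aqp7 and Aqp11, and the receptor gene Avpr2. Of these, 7 had a row among the 23378 genes of the table, and Aqp7 had no row among those analysed here. After the filter on low counts 6 members remained among 14180 genes tested, and Aqp11 did not pass it. The study compared macula densa cells with other sorted kidney cells, on a control diet and under a salt-depleting treatment.

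All mice were C57BL/6 animals carrying nNos CreERT2-mTmG, that is, a tamoxifen-inducible Cre recombinase under the gene for neuronal nitric oxide synthase (nNOS) and a reporter that turns from red tdTomato to membrane-bound green GFP where Cre has acted. Both cell populations came from these reporter mice, controls included. After digestion of the cortex, sorting took green cells for macula densa and, as control cells, those with the strongest red signal, which the labels call distal tubule and collecting duct epithelium. Mice were kept for 14 days on control diet, or on low salt diet (TD 90228) with enalapril, an inhibitor of angiotensin-converting enzyme, in the water they drank at 150 mg/L. Macula densa cells gave 2 libraries on each diet and control cells gave 4 on each. The labels do not say that each library is a separate animal, so p-values measure the spread between these libraries, which may be technical. Which cells turn green depends on activity of the nNOS gene promoter, and the red cells are defined by brightness.

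Aquaporins are membrane channels that let water, and in some members glycerol or ions, cross cell membranes. In the collecting duct, vasopressin binds the V2 receptor on principal cells, which raises cyclic AMP through a stimulatory G protein and adenylyl cyclase. Protein kinase A then phosphorylates AQP2, the vasopressin-regulated channel, and vesicles carry it to the apical membrane. Water leaves the cell on the basolateral side through AQP3 and AQP4. AQP1 serves the constitutively water-permeable proximal tubule and thin descending limb and the endothelium of descending vasa recta. AQP6 is an intracellular channel of intercalated cells, and AQP11 sits in the endoplasmic reticulum of proximal tubule cells. The macula densa belongs to the last stretch of the thick ascending limb, a segment known for low water permeability.

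Many aquaporin proteins, though not all, share a signature box of asparagine, proline and alanine residues that lines the pore. The coding sequences of the GENCODE M21 transcripts (GRCm38) were searched in frame for AACCCNGCN or AATCCNGCN, where N is any base. There were 2 matches in each of Aqp1, Aqp2, Aqp3 and Aqp6, 1 in Aqp11, and 0 in Aqp7, Avpr2 and the related receptor gene Avpr1a. Aqp4 was not searched. The first match is printed with the 9 bases on either side, 5′ to 3′, to show how Aqp1, Aqp2, Aqp3 and Aqp6 differ at their first box, which starts at base 202 to 247 of the coding sequence. The single Aqp11 match starts at base 646, near the start of the second box of the others (550 to 643). The capitals mark the matched codons.
Aqp1: gctcacctcAACCCTGCGgtcacactg
Aqp2: gcccacatcAACCCTGCTgtgactgtg
Aqp3: gcccacttgAACCCCGCTgtgaccttc
Aqp6: gcccacgccAACCCTGCTgtgaccctg
Aqp11: gcattgtttAACCCAGCGctggcactt

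The genes lie on 6 chromosomes, but Aqp2 and Aqp6 are close neighbours. On GRCm38 the gene spans are chr15:99579055-99584547 (plus strand) for Aqp2 and chr15:99601400-99605477 (plus strand) for Aqp6, with the salivary and lacrimal gland water channel gene Aqp5 between them at chr15:99590782-99594829. Aqp2 and Aqp5 are separated by 6234 bases and Aqp5 and Aqp6 by 6570. Aqp1 spans chr6:55336432-55348555 (plus strand), Aqp3 chr4:41092722-41098183 (minus strand), Aqp11 chr7:97724006-97738289 (minus strand) and Avpr2 chrX:73892102-73895502 (plus strand). The deposited counts are given per gene, and exons were joined here only to obtain gene lengths. Of the stretches of 50 transcript bases, none in Aqp1, Aqp2, Aqp4 or Aqp6 recurred in another gene, against 3 of 1779 in Aqp3 and 24 of 9446 in Aqp11. Avpr2 is different: 2206 of its 3028 stretches are shared with Arhgap4 on the opposite strand, and L1cam overlaps it there too. Whether the counting used strand is not stated, and the Avpr2 values are therefore uncertain.

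Of the 6 members that were lower together in macula densa cells, the 250 bases before the start are shown for the 4 whose window was read here and holds no exon of another gene. The Avpr2 window lies wholly in an exon of Arhgap4 and is not printed, and that of Aqp4 was not used here. They are RefSeq windows on GRCm38.p6, written 5′ to 3′ on the strand of the gene. Positions count from the RefSeq start, which for Aqp1 and Aqp6 lies upstream of the GENCODE span. Capitals mark matches to 3 motifs, read on either strand. These were the core of the cAMP response element, spelled TGACG, the core that GATA factors are known to bind, spelled AGATAA, and the box that commonly lies before the start of transcribed genes, spelled TATAAA and called the TATA box. The windows are chr15:99578806-99579055 for Aqp2, chr4:41098184-41098433 for Aqp3, chr15:99600950-99601199 for Aqp6 and chr6:55336049-55336298 for Aqp1.
Aqp2: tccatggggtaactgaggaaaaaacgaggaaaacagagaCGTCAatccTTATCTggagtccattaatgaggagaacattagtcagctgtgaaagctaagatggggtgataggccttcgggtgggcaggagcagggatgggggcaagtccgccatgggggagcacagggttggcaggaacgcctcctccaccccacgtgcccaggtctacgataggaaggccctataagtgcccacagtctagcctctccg
Aqp3: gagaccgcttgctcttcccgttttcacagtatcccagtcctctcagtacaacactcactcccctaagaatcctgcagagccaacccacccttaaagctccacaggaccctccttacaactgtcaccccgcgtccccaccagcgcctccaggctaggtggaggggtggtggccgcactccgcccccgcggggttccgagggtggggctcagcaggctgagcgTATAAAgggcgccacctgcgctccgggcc
Aqp6: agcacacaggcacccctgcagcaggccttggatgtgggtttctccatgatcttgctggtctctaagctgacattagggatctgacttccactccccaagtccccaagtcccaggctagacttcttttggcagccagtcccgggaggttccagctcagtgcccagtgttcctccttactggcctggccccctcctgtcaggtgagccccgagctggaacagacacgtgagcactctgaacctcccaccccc
Aqp1: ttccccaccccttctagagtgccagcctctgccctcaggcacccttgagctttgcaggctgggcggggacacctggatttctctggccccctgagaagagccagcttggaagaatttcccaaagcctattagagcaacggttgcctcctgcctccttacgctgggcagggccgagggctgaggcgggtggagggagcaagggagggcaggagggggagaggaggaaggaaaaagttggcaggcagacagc

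The Aqp2 window held the cAMP response element core at position -211 and the GATA core at -202 from the start, both read on the opposite strand. The Aqp3 window held a TATA box at -29, read on the strand of the gene. The unprinted Avpr2 window held the same letters at -45 only on the opposite strand. Also searched on both strands were the whole cAMP response element (TGACGTCA), an AP-1 site (TGANTCA), an ETS core (AGGAAG) and an NFAT core (TGGAAA). An ETS core lay at -38 in the Aqp2 window and at -29 in that of Aqp1, and the Aqp6 window held none of the 7 motifs. Among 32851 windows of the same length, 17.8% held the cAMP response element core (which the whole element contains), 9.99% the GATA core, 12.4% the TATA box and 29.5% the ETS core. The whole element was in 1.55%, the AP-1 site in 6.75% and the NFAT core in 18.6%. These are matches of letters, not measured binding. GC content was 55.6% for Aqp2, 64% for Aqp3, 59.6% for Aqp6 and 62% for Aqp1, against a median of 52.4% over all windows.

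Library totals ran from 4259034 to 14856540 counts, of which Gm42418, a gene lying over ribosomal RNA sequence, took 53.5% to 65.0%. Between 781241 and 2331458 counts per library fell on protein-coding genes of the nuclear genome. Levels are in CPM, counts divided by a library total after TMM (trimmed mean of M values) scaling, and 3 counts, the limit that a count of 0 allows, came to 0.231 to 0.734 CPM. Floors cover counting error only. The summed level of 4 macula densa markers (Nos1, Pappa2, Ptgs2, Slc12a1) was 2113 to 3057 CPM in macula densa cells and 42.1 to 431 in control cells. In control cells nearly all of that sum was Slc12a1, which the whole thick ascending limb expresses, and Nos1, the gene that drives Cre, was at 0.109 to 0.734 CPM there against 100.4 to 232 CPM in macula densa cells. The control cells held markers of several cell types. Their sums ran from 64.7 to 627 CPM for 10 principal cell markers, 31.8 to 511 for 10 intercalated cell markers, 45.6 to 1416 for 8 podocyte markers and 55.1 to 1769 for 10 endothelial markers. Podocytes and endothelium are not tubule epithelium, so the control cells were not epithelium alone. Control-cell library 4 on control diet had the lowest podocyte and endothelial sums and the highest principal and intercalated sums, and library 3 on low salt diet with enalapril had the lowest principal sum. Results that rest on these libraries are also given without both. Among macula densa libraries, library 1 on control diet had the highest endothelial and podocyte sums, at 197 and 170 CPM. The others had 14.3 to 29.1 and 29.2 to 49.3 CPM.

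The collecting duct water channels were abundant in control cells and scarce in macula densa cells. Aqp2 stood at 9.75 and 3.83 CPM in the 2 macula densa libraries on control diet and at 1.53 and 7.87 CPM in those on low salt diet with enalapril. In control cells it stood at 47.5, 85.0, 174.7 and 252 CPM on control diet and at 156, 64.9, 49.98 and 74.5 CPM on low salt diet with enalapril. Every control-cell library was above every macula densa library, the nearest pair being 47.5 and 9.75 CPM. Averaged over the diets, Aqp2 was 19.3-fold lower in macula densa cells (log2 fold change -4.27, SE 0.63, edgeR adjusted p = 0.000833). In sorted bulk RNA, fewer cells that express a gene and less of its RNA per cell cannot be told apart, here and for each gene below.

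Aqp3, the basolateral water and glycerol channel of principal cells, was likewise lower in macula densa cells. It stood at 10.1 and 3.91 CPM in macula densa cells on control diet and at 2.68 and 6.23 CPM on low salt diet with enalapril. In control cells it stood at 30.3, 82.2, 101 and 216 CPM on control diet and at 89.7, 25.2, 26.9 and 62.7 CPM on the other diet. The populations did not overlap, and Aqp3 was 13.3-fold lower in macula densa cells (log2 fold change -3.73, SE 0.62, edgeR adjusted p = 0.00173).

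Aqp4, the other basolateral water channel, was also lower in macula densa cells, with more spread between libraries. The gene spans chr18:15389496-15410982 (minus strand). It stood at 5.54 and 0.733 CPM in macula densa cells on control diet and at 0.575 and 1.97 CPM on low salt diet with enalapril. Control cells had 16.8, 25.6, 42.9 and 92.2 CPM on control diet, and 18.5, 14.0, 2.73 and 12.3 CPM on low salt diet with enalapril. Here the populations overlapped, since control-cell library 3 on low salt diet with enalapril, at 2.73 CPM, was below macula densa library 1 on control diet. Averaged over the diets, Aqp4 was 11.5-fold lower in macula densa cells (log2 fold change -3.52, SE 0.72, edgeR adjusted p = 0.00580).

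Avpr2, the receptor through which vasopressin acts on principal cells, was close to the counting limit in macula densa cells. There it stood at 1.85 and 0.896 CPM (18 and 11 counts) on control diet and at 0 and 0.984 CPM (0 and 6 counts) on low salt diet with enalapril. Control cells had 2.30, 9.02, 14.2 and 26.03 CPM on control diet and 8.45, 4.16, 1.05 and 6.61 CPM on the other diet. The lowest control-cell library, at 1.05 CPM with 5 counts, was below macula densa library 1 on control diet. Averaged over the diets, Avpr2 was 9.68-fold lower in macula densa cells (log2 fold change -3.27, SE 0.78, edgeR adjusted p = 0.0121). The overlapping gene Arhgap4 did not pass the test (log2 fold change 0.67, edgeR adjusted p = 0.296), with 2.05 to 4.91 CPM in macula densa cells and 1.05 to 5.39 CPM in control cells. L1cam, which encodes a cell adhesion protein and also overlaps Avpr2, was lower in macula densa cells (log2 fold change -1.06, edgeR adjusted p = 0.0280), at 12.9 to 23.0 CPM against 17.9 to 78.7. How many Avpr2 counts came from either neighbour was not tested.

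Aqp6, the intercalated cell member, was likewise near the counting limit in macula densa cells. It stood at 1.64 and 0.896 CPM in macula densa cells on control diet and at 0 and 1.15 CPM on low salt diet with enalapril. Control cells had 3.17, 10.1, 21.1 and 36.4 CPM on control diet, and 6.76, 5.63, 0.630 and 9.66 CPM on the other diet, where 0.630 CPM was 3 counts. Aqp6 was 11.5-fold lower in macula densa cells averaged over the diets (log2 fold change -3.52, SE 0.84, edgeR adjusted p = 0.0118), with the low salt libraries of both populations overlapping.

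Aqp1, the channel of proximal tubule, thin descending limb and vasa recta, was also lower in macula densa cells. It stood at 8.92 and 4.81 CPM there on control diet and at 3.45 and 1.97 CPM on low salt diet with enalapril. Control cells had 22.6, 43.2, 66.3 and 74.3 CPM on control diet, and 70.1, 29.9, 20.8 and 81.3 CPM on the other diet, all above every macula densa library. Aqp1 was 11.9-fold lower in macula densa cells (log2 fold change -3.57, SE 0.50, edgeR adjusted p = 0.000593), the smallest p-value among the members. Sums of the 3 cell types that carry AQP1 did not all move the same way. For 12 proximal tubule markers the sum was 59.2 to 277 CPM in macula densa cells and 35.9 to 114 in control cells. For 6 thin descending limb markers it was 8.74 to 59.5 against 54.1 to 742 CPM, and for 5 markers of vasa recta and arterial endothelium 1.30 to 3.80 against 8.25 to 46.4 CPM. Within the latter list Slc14a1 was near the counting limit and not lower, at 0 to 2.46 CPM against 0 to 0.93 CPM. The 4 tested genes of that list were lower averaged over the diets, against 13.9% of all genes. Slc14a2 alone held 32.3 to 680 CPM of the thin descending limb sum in control cells, the larger part in each library. That sum therefore mostly follows Slc14a2 there and does not by itself show how much thin descending limb was present. The part of these cell types in the Aqp1 difference was not tested.

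Aqp11 was near the counting limit in every library. It had 17 and 6 counts in macula densa cells on control diet and 4 and 6 on low salt diet with enalapril. In control cells it had 5, 2, 9 and 10 counts on control diet and 5, 3, 3 and 10 on the other diet. The populations overlapped throughout. Fitted without the filter on low counts, its log2 fold change averaged over the diets was 0.53 (SE 0.56, edgeR adjusted p = 0.575), which did not pass. The members that passed the filter ran from -4.27 for Aqp2 to -3.27 for Avpr2 in the main fit of that comparison. Of the other aquaporin genes only Aqp5 had a row, with 0 counts in all macula densa libraries and at most 2 counts in control cells apart from 85 in library 1 on low salt diet with enalapril.

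**Figure D1:**
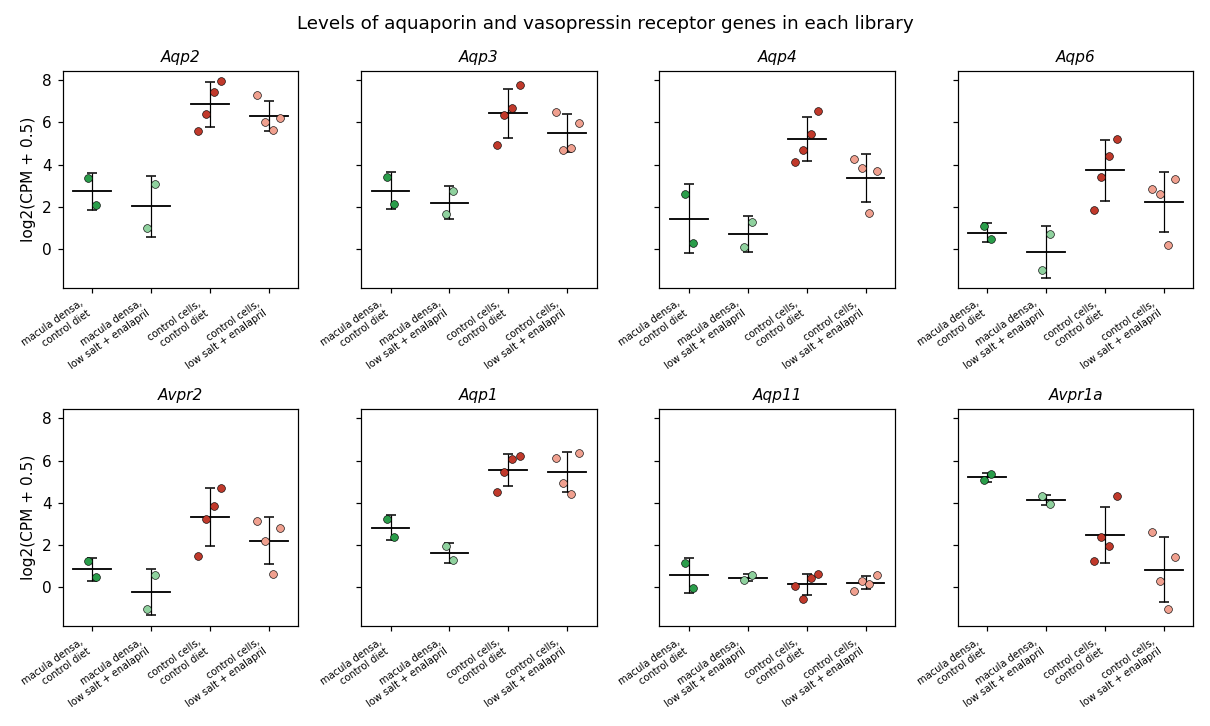
Level of each gene, log2(CPM + 0.5), in each of 12 libraries by cell population and diet; points are libraries, the long bar is the group mean and the whiskers are 1 SD. Aqp2, Aqp3 and Aqp1 of all control-cell libraries sit above all macula densa libraries, Aqp11 is near the floor in all 4 groups, and Avpr1a is higher in macula densa cells except for an overlap with control-cell library 4 on control diet at 19.9 CPM.

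Among genes compared per length, Aqp2 had the highest group mean of the members in every group. In control cells on control diet, levels in CPM per kilobase of exon were 98.6 ± 64.8 for Aqp2, 58.7 ± 42.8 for Aqp3, 19.6 ± 8.90 for Aqp1, 7.30 ± 5.98 for Aqp6, 7.12 ± 5.40 for Aqp4, 4.47 ± 3.48 for Avpr2 and 0.0697 ± 0.0394 for Aqp11 (SD, n = 4). Neighbours in this order had overlapping ranges, except that Aqp11 lay below every Avpr2 value. On low salt diet with enalapril the order in control cells was the same, from 60.8 ± 33.4 for Aqp2, 28.0 ± 16.9 for Aqp3 and 19.2 ± 11.3 for Aqp1 to 2.34 ± 1.55 for Aqp6, 1.91 ± 1.07 for Aqp4 and 1.76 ± 1.11 for Avpr2 (SD, n = 4). There Aqp1 and Aqp6 were separated, with a lowest Aqp1 value of 7.92 and a highest Aqp6 value of 3.99 CPM per kilobase. Macula densa cells on control diet kept the same order at lower levels, with 4.78 ± 2.95 for Aqp2, 3.82 ± 2.38 for Aqp3, 2.613 ± 1.11 for Aqp1 and 0.524 ± 0.218 for Aqp6 (SD, n = 2). In those libraries the neighbours down to Aqp1 overlapped. In macula densa library 1 on low salt diet with enalapril, Aqp2 at 1.08 CPM per kilobase was below Aqp3 at 1.47 and Aqp1 at 1.31.

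Testing each diet by itself gave fewer calls at similar sizes. On control diet, 4 of the 6 tested members were lower in macula densa cells by edgeR with an adjusted p under 0.05, beside 6.61% of all tested genes called in either direction and 3.92% called lower. These were Aqp1 (log2 fold change -2.91, adjusted p = 0.0232), Aqp2 (-4.37, adjusted p = 0.0148), Aqp3 (-3.95, adjusted p = 0.0208) and Aqp4 (-3.85, adjusted p = 0.0395). Aqp6 (-3.81, SE 1.11, edgeR adjusted p = 0.0601) and Avpr2 (-3.24, edgeR adjusted p = 0.0749) did not pass. All 6 had no overlap between the 2 macula densa and 4 control-cell libraries, against 16.7% of all genes lower without overlap. These calls rest on few libraries: 0 of the 6 passed without macula densa library 1 or without library 2 on control diet, each of which leaves 1 library in that group whose spread is assumed to be that of the others, and 2 passed without control-cell library 3 on control diet. The Aqp4 call was lost in 8 of the 12 omissions of a single library, that of Aqp1 in 3 and those of Aqp2 and Aqp3 in 2 each. Without control-cell library 4 on control diet and library 3 on low salt diet with enalapril, 6 passed.

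On low salt diet with enalapril, 3 of the 6 members were lower in macula densa cells by the same test, beside 7.27% of all genes called and 4.13% called lower. These were Aqp1 (log2 fold change -4.23, SE 0.74, edgeR adjusted p = 0.00679), Aqp2 (-4.18, SE 0.89, adjusted p = 0.0184) and Aqp3 (-3.51, SE 0.87, adjusted p = 0.0334). Aqp4 (-3.19, SE 1.07, edgeR adjusted p = 0.0892), Avpr2 (-3.31, SE 1.23, adjusted p = 0.118) and Aqp6 (-3.24, SE 1.29, adjusted p = 0.139) did not pass. Without overlap were 5 of the 6, all but Aqp6, against 19.5% of all genes. Leaving out macula densa library 1 on this diet left 1 call and leaving out library 2 left 0. The Aqp3 call was lost in 5 of the 12 omissions of a single library, that of Aqp2 in 2 and that of Aqp1 in 1. Without control-cell library 4 on control diet and library 3 on low salt diet with enalapril, 6 passed.

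Over both diets, 6 of the 6 tested members were lower in macula densa cells, beside 21.3% of all genes called and 13.9% called lower. The median of the members was -3.55 on the log2 fold change scale, against -0.06 over all genes tested. Only Aqp1, Aqp2 and Aqp3 had no overlap across both diets, 3 of 6, against 5.28% of all genes. Aqp6 and Avpr2 no longer passed without macula densa library 2 on control diet (edgeR adjusted p = 0.0614 and 0.0623), and the other 4 passed without any single library. All 6 passed without control-cell library 4 on control diet and library 3 on low salt diet with enalapril. In the same comparison 9 of 10 principal cell markers, 5 of 10 intercalated cell markers and 6 of 6 thin descending limb markers were lower in macula densa cells. So were 10 of 10 endothelial markers, 6 of 8 podocyte markers, 6 of 6 markers of smooth muscle, mesangium and renin cells, and 8 of 8 immediate early genes, which respond to stress and handling. Called higher were 4 of 4 macula densa, 5 of 9 thick ascending limb and 4 of 12 proximal tubule markers, against 7.48% of all genes. Of 8 distal convoluted and connecting tubule markers 1 was higher, and 0 markers of these lists were called lower. The immediate early genes summed to 75.1 to 209 CPM in macula densa cells and 154 to 410 CPM in control cells. The principal cell sum was 18.97 to 44.4 CPM in macula densa cells against 64.7 to 627 in control cells, and the intercalated sum 50.8 to 117 against 31.8 to 511 CPM. All 10 principal cell markers had counts in control cells, and Elf5 had 0 in 3 of the 4 macula densa libraries. The part of these cell types and genes in the member differences was not tested.

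**Figure D2:**
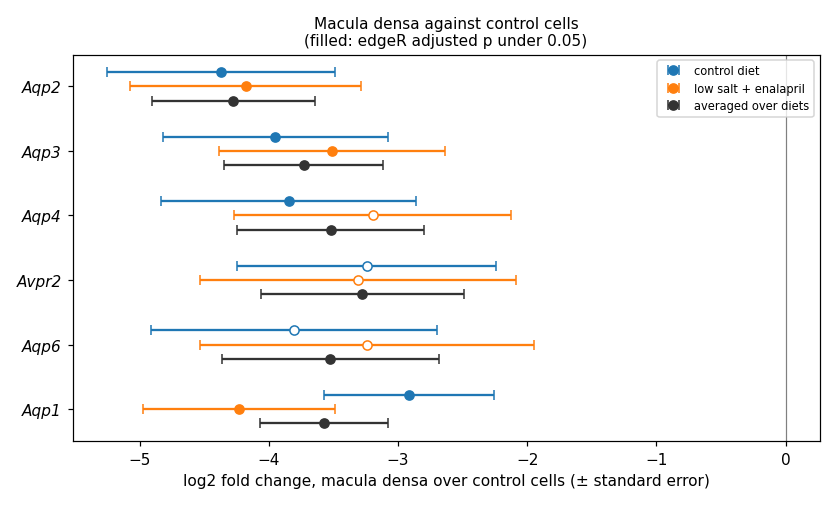
Log2 fold change of macula densa over control cells for the 6 tested members, with whiskers of 1 standard error, for each diet and averaged over both; filled points passed edgeR at an adjusted p under 0.05. All points lie between -4.37 and -2.91, and the averaged comparison is filled for each of the 6 members.

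Diet changed no member by the same test, and the largest differences, negative ones of Aqp4 and Aqp6 in control cells, did not pass. In control cells, 0 of 6 members passed edgeR at an adjusted p under 0.05, beside 0.00705% of all genes (1 gene), and 0 also passed with DESeq2 or limma voom. With an unadjusted p under 0.05 there were 2 of 6 members, Aqp4 and Aqp6, against 6.45% of all genes in either direction and 2.44% lower. Control-cell Aqp4 averaged 44.4 ± 33.7 CPM on control diet and 11.9 ± 6.64 CPM on low salt diet with enalapril (SD, n = 4), with an overlap made by libraries 1 of both groups at 16.8 and 18.5 CPM. Its log2 fold change was -1.88 (SE 0.67, edgeR adjusted p = 0.670). Control-cell Aqp6 averaged 17.7 ± 14.5 against 5.67 ± 3.77 CPM (SD, n = 4), a log2 fold change of -1.59 (SE 0.73, edgeR adjusted p = 0.773).

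The remaining collecting duct members had the same sign at smaller size. Control-cell Avpr2 averaged 12.9 ± 10.03 CPM on control diet and 5.07 ± 3.20 on low salt diet with enalapril (SD, n = 4), a log2 fold change of -1.28 (SE 0.68, edgeR adjusted p = 0.865). Aqp3 averaged 107 ± 78.3 against 51.1 ± 31.0 CPM (SD, n = 4), a log2 fold change of -1.06 (SE 0.57, edgeR adjusted p = 0.871). Aqp2, the member most closely tied to vasopressin, averaged 139.9 ± 92.0 against 86.3 ± 47.4 CPM (SD, n = 4), a log2 fold change of -0.69 (SE 0.57, edgeR adjusted p = 0.963). Aqp1 was nearly level, with 51.6 ± 23.4 against 50.5 ± 29.7 CPM (SD, n = 4) and a log2 fold change of -0.02 (SE 0.45, edgeR adjusted p = 0.999). All 6 members overlapped between the diets, while 2.09% of all genes were lower without overlap. All 6 fold changes were negative, as were 54.2% of those of all genes, and their median was -1.17 against -0.04. Without control-cell library 4 on control diet and library 3 on low salt diet with enalapril, the log2 fold change was -0.92 for Aqp4, -0.62 for Aqp6 and -0.05 for Aqp2, and that of Aqp1 turned to 0.46. The principal cell sum was 287 to 627 CPM on control diet and 64.7 to 325 CPM on low salt diet with enalapril. All 10 of its markers had negative log2 fold changes between the diets with 0 passing, and its part in the member differences was not tested.

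In macula densa cells the diet comparison had 2 libraries on each side, with 8 to 98 counts of Aqp1, Aqp2 and Aqp3 and 0 to 54 of Aqp4, Aqp6 and Avpr2. No member passed edgeR at an adjusted p under 0.05 (0 of 6), beside 0% of all genes called, and 11.2% of all genes with an unadjusted p under 0.05 (5.73% lower). DESeq2 and limma voom also gave 0, and none of the 6 had an unadjusted p under 0.05 in the edgeR test. Aqp1 came nearest, with 6.87 ± 2.91 CPM on control diet and 2.71 ± 1.05 CPM on low salt diet with enalapril (SD, n = 2), a log2 fold change of -1.34 (SE 0.74, edgeR adjusted p = 0.537). It was the only member without overlap, against 21.8% of all genes lower without overlap. Aqp2 averaged 6.79 ± 4.18 against 4.70 ± 4.48 CPM (SD, n = 2), with a log2 fold change of -0.50 (SE 0.87, edgeR adjusted p = 0.868). The other log2 fold changes were -0.63 for Aqp3, -1.23 for Aqp4, -1.03 for Aqp6 and -1.35 for Avpr2, with standard errors of 0.88 to 1.51. Those of Aqp2, Aqp3 and Aqp4 turned positive without macula densa library 1 on control diet, at 0.26, 0.15 and 0.76. Among macula densa libraries, that library had the highest level of each of the 6 members. It also had the highest endothelial and podocyte sums. The part of other cell types in these diet differences was not tested.

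The diet effects of the 2 cell populations were also compared directly. Macula densa minus control cells, the differences of log2 fold changes were -1.32 (SE 0.87) for Aqp1, 0.19 (SE 1.05) for Aqp2, 0.44 (SE 1.05) for Aqp3, 0.65 (SE 1.38) for Aqp4, 0.56 (SE 1.79) for Aqp6 and -0.07 (SE 1.25) for Avpr2. None passed edgeR (0 of 6), with adjusted p-values from 0.791 to 0.996, beside 0% of all genes called and 7.03% with an unadjusted p under 0.05. DESeq2 and limma voom gave 0 as well, and none of the 6 had an unadjusted p under 0.05 by edgeR.

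**Figure D3:**
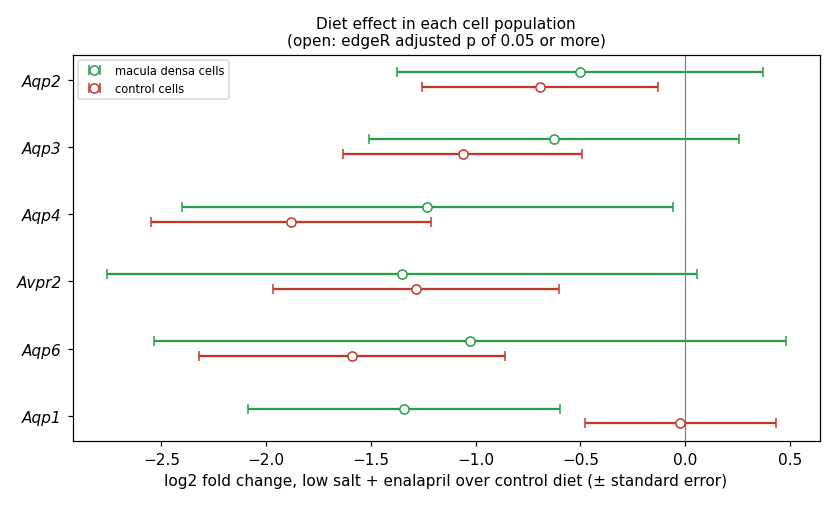
Log2 fold change of low salt diet with enalapril over control diet for the 6 tested members in macula densa and control cells, with whiskers of 1 standard error; open points did not pass edgeR at an adjusted p under 0.05. The control-cell points run from -1.88 for Aqp4 to -0.02 for Aqp1, and all 12 points are open.

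Because Aqp2, Aqp3 and Aqp4 share a cell type, counts of each member were set against Aqp2 within the same library, which removes library scaling. These 10 ratio tests were chosen after the values were seen, and each is an exact two-sided permutation test over libraries on log2 ratios with 0.5 added to each count, adjusted over all 10. In control cells there were 35.5, 30.1, 24.6 and 36.5 counts of Aqp4 per 100 of Aqp2 on control diet and 11.9, 21.5, 5.46 and 16.5 on low salt diet with enalapril. The 2 diets did not overlap in this ratio, with medians of 32.8 and 14.2. The log2 ratio on low salt diet with enalapril minus control diet was -1.33 (exact permutation p = 0.0286, the smallest that 4 against 4 libraries can give, adjusted p = 0.143), so it did not pass after adjustment. It was -0.87 without control-cell library 4 on control diet and library 3 on low salt diet with enalapril (exact permutation p = 0.1, the smallest that 3 against 3 can give). Against Aqp2, the differences were -1.06 for Aqp6 (exact permutation p = 0.229), -0.65 for Avpr2 (p = 0.257), -0.40 for Aqp3 (p = 0.143) and 0.45 for Aqp1 (p = 0.371).

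Between cell populations, Aqp2 stood lower against the other members in macula densa cells, without passing the adjusted test. Aqp3 had 103, 102, 175 and 79.2 counts per 100 of Aqp2 in the 4 macula densa libraries, against 38.9 to 96.7 in the 8 control-cell libraries with a median of 60.9. The log2 ratio was higher by 0.75 in macula densa cells (exact permutation p = 0.0222, adjusted p = 0.143), with an overlap made by macula densa library 2 on low salt diet with enalapril. The differences were 1.09 for Avpr2 (exact permutation p = 0.0485, adjusted p = 0.162), 0.92 for Aqp1 (p = 0.0970), 0.75 for Aqp4 (p = 0.184) and 0.89 for Aqp6 (p = 0.198). The macula densa ratios of Aqp6 and Avpr2 rest on 0 to 18 counts per library.

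**Figure D4:**
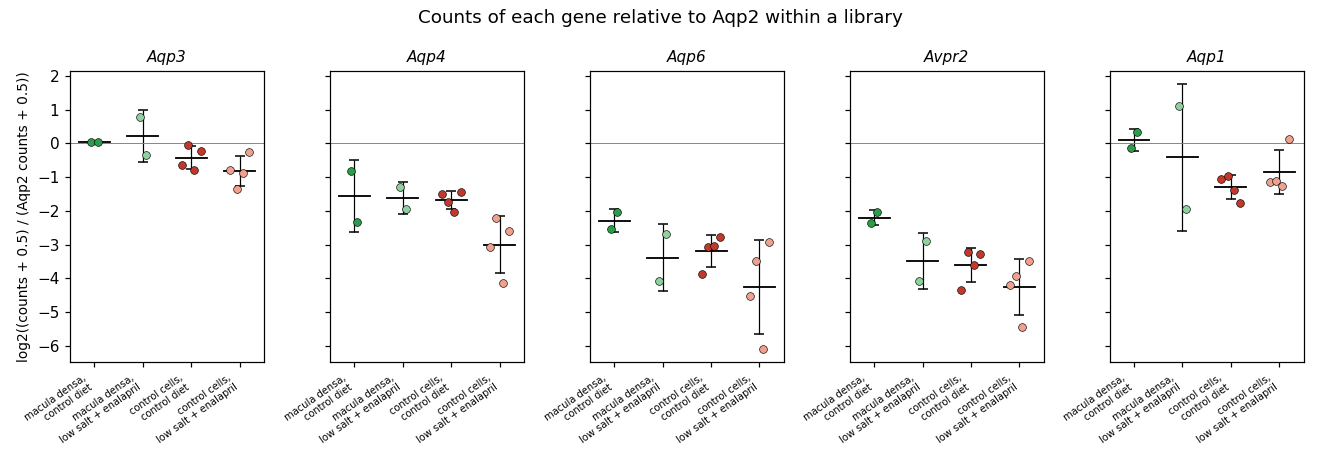
Log2 of counts of each member relative to Aqp2 within each library, with 0.5 added to both counts; points are libraries, the long bar is the group mean and the whiskers are 1 SD. The Aqp4 ratios of control cells are lower on low salt diet with enalapril (5.46 to 21.5 per 100 of Aqp2) than on control diet (24.6 to 36.5).

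Levels of the members were correlated over the 8 control-cell libraries. Pearson's r of log2(CPM + 0.5) was 0.98 for Aqp6 and Avpr2 (Spearman's rho 0.98, exact permutation p = 0.000149 and 0.000397), 0.94 for Aqp4 and Aqp6 (rho 0.83, exact permutation p = 0.00161 and 0.0154) and 0.93 for Aqp2 and Aqp3 (rho 0.90, exact permutation p = 0.00134 and 0.00456). Of 27 relations computed, these had adjusted p-values of 0.00402, 0.00725 and 0.00725 for r and 0.0107, 0.0377 and 0.0176 for rho. Without the 2 libraries farthest from the median of the first gene of each pair, r was 0.93, 0.70 and 0.83. The lowest r between members was 0.63 for Aqp1 and Aqp4 (rho 0.40, exact permutation p = 0.0898 and 0.327), and the highest with Aqp1 was 0.85 for Avpr2 (rho 0.69, exact permutation p = 0.00561 and 0.0694). Without 2 libraries those became 0.33 and 0.58. Each diet has 4 control-cell libraries, too few for a value within it, and all genes of a library share its mix of cells and its depth.

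Against the summed principal cell markers, r differed among the members. Over the same 8 libraries r was 0.92 for Aqp4 (rho 0.79), 0.92 for Aqp6 (rho 0.90) and 0.83 for Avpr2 (rho 0.83), with exact permutation p-values for r of 0.00285, 0.00151 and 0.00858 (adjusted 0.00952, 0.00725 and 0.0154). For Aqp3, Aqp1 and Aqp2 r was 0.66, 0.61 and 0.59, with exact permutation p-values of 0.0616, 0.0805 and 0.110. That Aqp4, Aqp6 and Avpr2 relate to the marker sum more closely than Aqp2 does was not tested. Library 4 of control cells on control diet and library 3 on the other diet lie farthest out in the marker sum. Without them r fell to 0.51, 0.61 and 0.32 for Aqp4, Aqp6 and Avpr2 and to -0.01 for Aqp2, so the relations rest on those libraries. Aqp2 equalled 16.5% to 77.7% of the principal marker sum in control cells, with the highest shares in libraries 1 and 3 on low salt diet with enalapril. In macula densa cells Aqp2 equalled 8.08% to 25.9% of that sum, which overlaps the control-cell range. Against the intercalated marker sum, Aqp2 and Aqp3 had r of 0.84 and 0.81 (exact permutation p = 0.00317 and 0.0142, adjusted p = 0.00952 and 0.0225). Their rho was 0.81 and 0.76 (exact permutation p = 0.0218 and 0.0368, adjusted p = 0.0452 and 0.0662). Without libraries 1 and 4 of control cells on control diet, Pearson's r was 0.72 and 0.71. Aqp6, the intercalated cell member, had r of 0.58 with this sum (rho 0.55, exact permutation p = 0.117 and 0.171), and Aqp4 had 0.48 (rho 0.48, exact permutation p = 0.214 and 0.243). For Avpr2 and Aqp1 r was 0.71 and 0.69 (adjusted p = 0.0634 and 0.062 by exact permutation).

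By Pearson's r over the 8 control-cell libraries, the genes most like each member were taken from 6681 genes with a mean of at least 5 CPM. For Aqp2 these were Nipal3, Efemp1 and Dclk3 (0.98, 0.98 and 0.97), and for Aqp3 Tbck, Mrps25 and Tpd52l1 (0.97, 0.96 and 0.96). For Aqp4 they were Fkbp4, Btc and Gstm2 (0.99, 0.98 and 0.98), and for Aqp6 Tmem45b, Gm28438 and Tecr (0.99, 0.99 and 0.98). Cat, which encodes catalase, was most like Avpr2 at 0.99, followed by Aqp6 at 0.98 and Tmem45b at 0.97. For Aqp1 the closest were 4931406C07Rik, Tmem94 and Gps1 (0.94, 0.92 and 0.92). These are the top values of many and describe these 8 libraries only.

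Among the other vasopressin receptor genes, Avpr1a was higher in macula densa cells. Avpr1a, which encodes the V1a receptor that signals through calcium, stood at 33.0 and 40.3 CPM in macula densa cells on control diet and at 19.3 and 15.1 CPM on low salt diet with enalapril. In control cells it stood at 1.86, 4.70, 3.43 and 19.9 CPM on control diet and at 5.61, 0.734, 0 and 2.24 CPM on the other diet. Averaged over the diets it was 5.82-fold higher in macula densa cells (log2 fold change 2.54, SE 0.63, edgeR adjusted p = 0.0137). Control-cell library 4 on control diet made the only overlap, lying above both macula densa libraries on low salt diet with enalapril. The call was lost without macula densa library 2 on control diet (edgeR adjusted p = 0.0512). Per length, Avpr1a was the highest of these genes in macula densa cells, at 13.7 ± 1.93 CPM per kilobase on control diet and 6.45 ± 1.13 on low salt diet with enalapril (SD, n = 2), against 4.78 ± 2.95 and 3.31 ± 3.16 for Aqp2. On each diet by itself Avpr1a did not pass, at 2.29 on the log2 scale on control diet (edgeR adjusted p = 0.123) and 2.79 on the other (adjusted p = 0.0845). Its diet difference in macula densa cells was -1.09 (SE 1.03, edgeR adjusted p = 0.728). Avpr1b, the V1b receptor gene, had at most 8 counts in any library and was not tested.

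**Figure D5:**
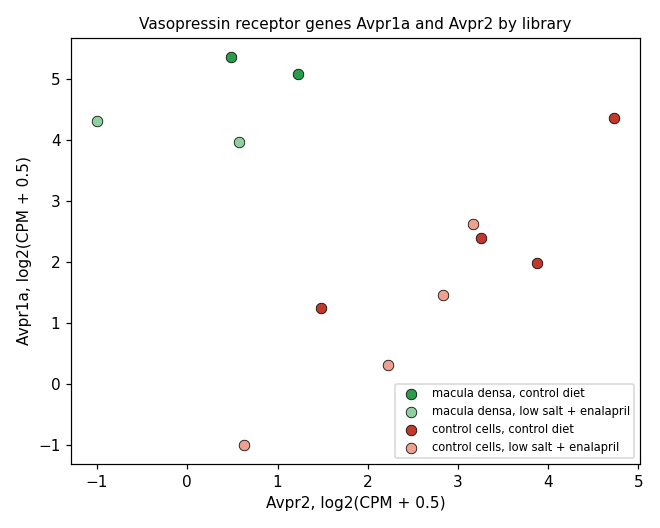
Avpr1a against Avpr2 in each library, both as log2(CPM + 0.5), coloured by cell population and diet. The 4 macula densa libraries have Avpr1a of 15.1 to 40.3 CPM with Avpr2 of 0 to 1.85 CPM, and control-cell library 4 on control diet is high in both, at 19.9 and 26.03 CPM.

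Downstream of the receptors, a list of 38 genes of vasopressin signalling and AQP2 handling held 37 tested genes. Averaged over the diets, 2 passed as higher in macula densa cells (against 7.48% of all genes), 10 as lower (against 13.9%) and 25 did not pass, with a median log2 fold change of -0.28 against -0.06 over all genes. Of the enzymes that make and break cyclic AMP, Adcy5, an adenylyl cyclase, was 5.75-fold lower (log2 fold change -2.52, SE 0.43, edgeR adjusted p = 0.00202), at 0.652 to 1.54 CPM in macula densa cells against 2.31 to 9.55 in control cells. Pde3a, a phosphodiesterase that degrades cyclic nucleotides, was 9.18-fold lower (log2 fold change -3.20, SE 0.59, edgeR adjusted p = 0.00337), at 1.34 to 3.69 against 4.03 to 37.5 CPM. Adcy6, the cyclase best known for vasopressin action in the collecting duct, did not pass (log2 fold change 0.32, edgeR adjusted p = 0.126), nor did the G protein gene Gnas (-0.27, adjusted p = 0.509). Adcy3, with at most 3 counts in any macula densa library, and Pde4a also passed as lower (edgeR adjusted p = 0.0333 and 0.0286). The phosphodiesterase genes Pde4b and Pde4d did not pass (edgeR adjusted p = 0.170 and 0.693). Of these genes, all but Adcy5 and Pde3a are named for their place in the pathway, after their values were seen.

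Of the protein kinase A genes, 2 regulatory subunit genes were lower in macula densa cells. Prkar2b had at most 3 counts in any macula densa library and averaged 1.59 ± 0.984 CPM in control cells (SD, n = 8). That mean was 3.92-fold the level of 3 counts per macula densa library, on average 0.405 CPM. Prkar2b passed as lower in macula densa cells (edgeR adjusted p = 0.00418), a call lost with limma voom (adjusted p = 0.0636). Prkar1a was lower by a log2 fold change of -0.64 (SE 0.16, edgeR adjusted p = 0.0139), at 37.4 to 42.1 against 37.0 to 82.9 CPM. That call was lost without either macula densa library on control diet, without library 2 on low salt diet with enalapril, and with scaling by library totals alone, at adjusted p-values up to 0.117. The 2 higher genes of the list were Avpr1a and Prkaca, a catalytic subunit gene named here after its values were seen. Prkaca was higher by 0.49 on the log2 scale (SE 0.16, edgeR adjusted p = 0.0483), and 15 of 23 alternatives lost that call, among them the absence of any one of the 4 macula densa libraries, with adjusted p-values up to 0.203.

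Among transcription factors, Elf5, a factor of principal cells that is also in the marker list, had at most 3 counts in any macula densa library. It averaged 2.19 ± 1.86 CPM in control cells (SD, n = 8), 5.40-fold the same level of 3 counts per macula densa library. Elf5 passed as lower in macula densa cells (edgeR adjusted p = 0.00413). Nfat5, a tonicity-responsive factor, was 1.64-fold lower (log2 fold change -0.71, SE 0.15, edgeR adjusted p = 0.00559) with no overlap, at 55.6 to 57.1 against 75.5 to 106 CPM. Creb1, the cyclic AMP response factor and likewise named afterwards, did not pass (log2 fold change 0.09, edgeR adjusted p = 0.778). Arrb1, which encodes an arrestin that desensitises receptors, was 1.85-fold lower (log2 fold change -0.89, SE 0.22, edgeR adjusted p = 0.0138), and among the alternatives that ended the call were leaving out macula densa library 2 on control diet and scaling by library totals alone (adjusted p-values up to 0.0614). On control diet alone 0 of the 37 were higher and 3 lower, against 382 of 14180 genes called higher and 3.92% called lower. On low salt diet with enalapril 1 was higher and 3 lower, against 446 of 14180 called higher and 4.13% called lower. None of the 37 passed edgeR between the diets in either population, where 2 in each had an unadjusted p under 0.05 (against 11.2% of all genes in macula densa cells and 6.45% in control cells).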

How the data were processed

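Sorted macula densa and control cells of mouse kidney cortex were measured by RNA sequencing in 12 libraries (2, 2, 4 and 4 per group). Libraries were made with the SMARTer Stranded Total-RNA Pico v2 kit, per the labels' protocols, and the submitters' processing notes name STAR 2.61, Partek and mm10. The unit deposited by the authors is an expected count per gene, of which 16.1% of values were fractional and were rounded, and the smallest sum of a row over libraries was 10. The counting rule, annotation and use of strand are not given in the sources used here, although 23351 of 23378 rows have the coordinates of GENCODE M21. Low counts were filtered with filterByExpr (count minimum 10, total minimum 15). Group means of all 12 libraries were fitted together after TMM scaling with edgeR 4.0.16 (quasi-likelihood test, R 4.3.3), with Benjamini-Hochberg adjustment over all genes tested and a threshold of 0.05. DESeq2 1.42.0 (Wald test), limma 3.58.1 (voom), other scaling and filters, replicate blocks and leaving out libraries were alternatives. CPM values use the TMM-scaled library total, and their log2 was taken after adding 0.5. Single values were compared by exact two-sided permutation tests. No 2 libraries of the same group held identical columns. The test was checked on simulated data. The members, marker lists and pathway list were chosen with earlier results of these data known. All members were described, with the pathway genes of the 8 smallest p-values past the threshold averaged over the diets and the 3 genes most like each tested member.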

Additional observations from a re-analysis of the deposited data

Results flagged for a closer look

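Aqp5, the water channel gene between Aqp2 and Aqp6, stood at 6.53 CPM in control-cell library 1 on low salt diet with enalapril, with 85 counts. The other 3 libraries of that group had 0 to 0.245 CPM. The gap to the nearest library was 0.849 of the range of the group, above Dixon's critical value for 4 libraries. Among 20 sets of 4 libraries examined this way, 1 stood apart, and chance flags about 1.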

How the results depend on the processing

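Every log2 fold change of macula densa against control cells kept its negative sign for the 6 tested members under every alternative run. On control diet 4 members were called. Fitting only the groups compared gave 2, and leaving out 1 library gave 0 to 6. On low salt diet with enalapril 3 were called. DESeq2 gave 6 and limma voom 0, while leaving out 1 library gave 0 to 4. A pair of alternatives chosen after seeing the data each gave 6 there: the 8 libraries that share a description number without a block, and all libraries but control-cell library 4 on control diet and library 3 on low salt diet with enalapril. Averaged over the diets 6 were called, with 4 to 6 when 1 library was left out and 4 with voom (Aqp6 and Avpr2 lost, adjusted p = 0.208 and 0.180). Between the diets, and for the difference of diet effects, 0 members were called under all alternatives run.

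The labels do not say what shared replicate numbers stand for. Deviations from group means of same-numbered libraries correlated at 0.241, 0.0703, -0.0187 and -0.0292 for the numbers of the descriptions. For those of the titles they correlated at 0.271, -0.0215, -0.241 and -0.0703. With 2 libraries in a macula densa group, the deviations of 1 are those of the other with the sign turned. The values 0.241 and 0.0703 therefore recur with a negative sign, and none of these correlations can decide on pairing. No pairing was assumed in the main fit. With a replicate block by title number, 0 members were called on control diet, 1 on low salt diet with enalapril and 4 averaged over the diets. The block by title number also ended the averaged calls of Arrb1 and Prkaca. With a replicate block by description number the member counts were 6, 6 and 6, and the Prkaca call was lost. The block by description number gives no diet comparison, because those numbers coincide with the diets, and a fit of only the groups compared gives no averaged comparison.

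Reversed signs were all of values that passed no test, and the cause was not tested. The diet difference of Aqp1 in control cells became 0.00106 with a filter of 5 CPM, 0.00136 without mitochondrial and ribosomal rows, 0.0109 with voom, 0.0422 with the 8 libraries and 0.46 without the 2 control-cell libraries. Without 1 library it ran from -0.31 to 0.23. In macula densa cells the diet difference ran from -2.19 to 0.26 for Aqp2, -1.43 to 0.15 for Aqp3 and -2.46 to 0.76 for Aqp4. The difference of diet effects became -0.0513 for Aqp2 and -0.65 for Aqp6 with voom. It became -0.43, -0.36, -0.28 and -0.39 for Aqp2, Aqp3, Aqp4 and Aqp6 without the 2 control-cell libraries. For Aqp6 it was -0.15 with the replicate block by description number and -0.0189 with the 8 libraries. Without 1 library it ran from -1.50 to 0.95 for Aqp2, -0.37 to 1.22 for Aqp3, -0.57 to 2.66 for Aqp4, -4.93 to 1.41 for Aqp6 and -5.36 to 0.76 for Avpr2.

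Scaling by library totals alone moved the median log2 fold change of all genes from -0.05 to 0.12 on control diet, -0.06 to 0.16 on low salt diet with enalapril and -0.06 to 0.14 averaged, and the share lower among called genes from 59.3% to 37.7%, 56.7% to 34.8% and 64.9% to 44.2%. Macula densa libraries held 0 to 18 counts of Avpr2 and 0 to 16 of Aqp6, which limits what their diet comparison can show.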
